A study of Rattus norvegicus with 8 samples.

Results

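The data are counts of RNA 3′ ends at single polyadenylation sites, taken by whole transcriptome termini site sequencing (WTTS-seq) from hypothalamus tissue of adult male rats of the Long-Evans strain. An obesity group of 4 rats had free access to a high fat diet and a control group of 4 rats was kept on standard chow, and brain tissue was taken after 36 days. Each rat gave 1 library, numbered 1 to 4 within its group, and values of single libraries are given in that order. The libraries held between 1417531 and 1957726 reads at 73922 listed sites. The genes described here are the protein-coding genes with over 50 sites, counting for each gene the sites on the strand that carried more of its reads. They were chosen by the number of sites with at least the 30 reads that a site needed to be listed, so that their many sites and their read level are a description and not a result. The rule found 110 of 12255 genes (0.898%), and they held 9726 of all sites (13.2%) and 1528946 reads (11.5% of all reads). Just inside the threshold stood Cadps, Kcnq3 and Ntrk2 with 51 sites each and 3786, 5602 and 11813 reads. Just outside it stood Cacnb2, Gria4 and Grm3 with 50 sites each and 2822, 4498 and 6233 reads.

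A messenger RNA is finished when the growing transcript is cleaved and a poly(A) tail is added, and most genes can be cleaved at more than 1 place. A site in the last exon keeps the whole coding sequence and sets the length of the 3′ untranslated region, whereas cleavage or priming within an intron gives a read far upstream of the gene's end. Neurons transcribe very long genes for adhesion molecules, synaptic scaffolds and ion channels, and the introns of such genes make up most of their length. The labelled tissue could be checked with 10 hypothalamic genes, among them the neuropeptides Avp, Oxt, Pomc and Agrp. All 10 were measured, and their summed level lay between 768 and 1401 reads per 1000000 over the 8 libraries.

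The 110 genes were spread over 20 chromosomes, and their sites spanned from 14.6 to 2362 kb (median 735 kb). All positions are on Rnor_6.0 as deposited, a span runs from the first to the last site of a gene, and 5′ and 3′ follow the strand of the counted reads. The gene with the most sites was Rbfox1 (gene23131), a neuronal splicing factor, with 256 sites between 8313713 and 10424598 on the minus strand of chromosome 10. Kcnip4 (gene29732), a subunit that modulates A-type potassium channels, followed with 217 sites between 65550028 and 66749141 on the plus strand of chromosome 14. Nrg3, a ligand of the receptor ERBB4, and Nrxn3, a presynaptic adhesion molecule, had 188 sites each, and the protocadherin Pcdh9 had 183. The longest spans were those of Dmd, the dystrophin gene (2362 kb), the neurexin relative Cntnap2 (2316 kb) and the synaptic scaffold Dlg2 (2297 kb).

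Most of these sites were thinly read. The median site had 58.0 reads over the 8 libraries, and 4973 sites (51.1%) had fewer than 60. Reads were present in all 8 libraries at 5593 sites (57.5%). At the other end, 115 sites in 37 genes had over 1000 reads each and held 39.6% of the reads. Longer spans went with more sites (Spearman rho 0.510 over 110 genes), and more reads went with more sites (rho 0.658), where a deeper gene also brings more positions over the listing minimum.

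By the length of the span the genes fell into 2 sets. In 105 genes the span was at least 237 kb, with a median distance of 3854 bp between neighbouring sites. In the other 5 genes, Map1a, Peg3, Copg2, Ube3a and Map1b, the span was at most 90.9 kb, the median distance was 133 bp, and 398 sites held 33.8% of the reads of all 110 genes. This division into long and short genes, at 100 kb, was made after the spans had been seen.

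Among the 110 genes no place along the span was preferred by all. Over the 110 genes the strongest site held a median of 9.17% of a gene's reads, the 3′-most 10% of the span held a median of 10.8%, and the 5′-most 10% held a median of 12.4%. The strongest site lay in the 3′-most 10% in 24 genes, in the 5′-most 10% in 21 genes and between them in 65 genes, and it was the very last site in 7 genes. The evenest profiles were those of Rbfox1, whose strongest site held 3.64% of its reads, of Il1rapl1, an interleukin receptor relative found at synapses (3.77%), and of the axon guidance receptor Robo1 (3.97%). Reads were gathered towards the 5′ end in Dmd (50.1% in the 5′-most 10%), Cntnap2 (47.4%) and Lrp1b, an LDL receptor relative (42.8%). Towards the 3′ end they were gathered in Ank2, which anchors membrane proteins to the spectrin skeleton (61.8% in the 3′-most 10%), in the RNA-binding protein gene Celf4 (59.4%), and in Ntm (51.5%), Peg3 (51.9%) and Akap6 (51.2%). Of these, Lrp1b, Celf4, Ntm and Akap6 were named after their values had been seen. The mean read position ran from 22.4% of the span in Cntnap2 to 89.0% in Map1b.

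**Figure D1:**
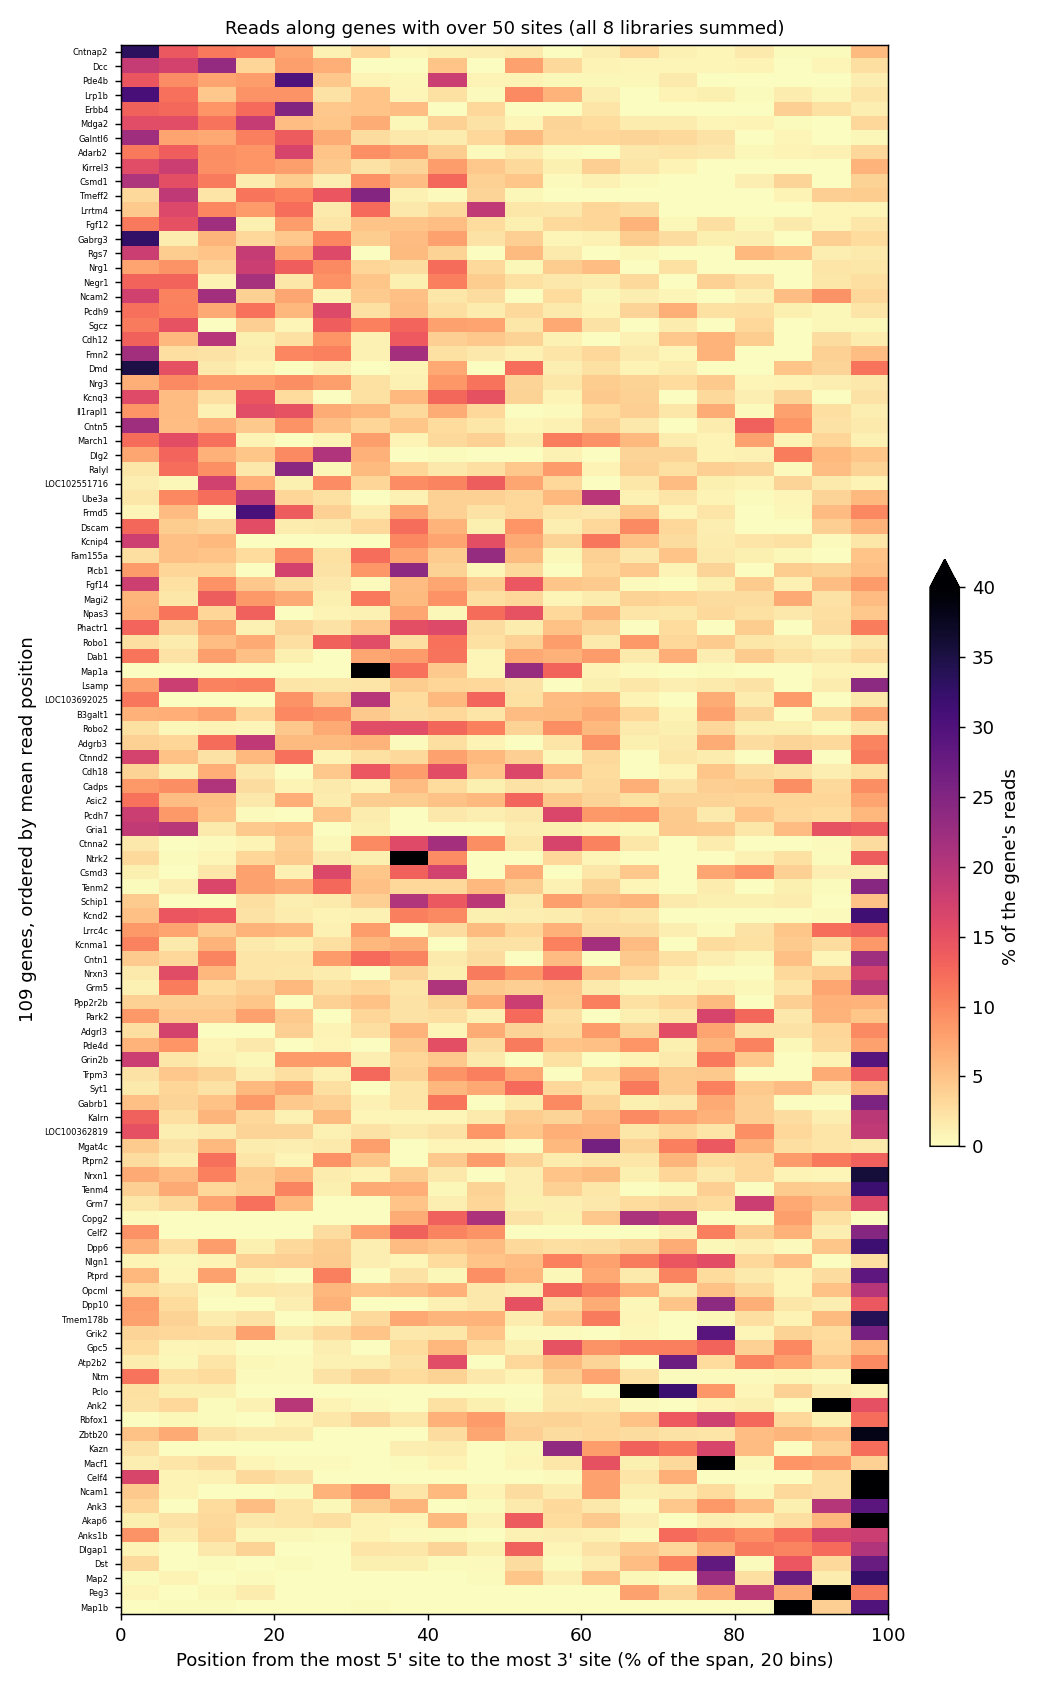
Percent of each gene's reads (colour, all 8 libraries summed) in 20 equal bins from the most 5′ to the most 3′ site, for 109 of the 110 genes, ordered by mean read position. Cntnap2 at the top has its mean read position at 22.4% of the span and Map1b at the bottom at 89.0%, and most rows show scattered bins without one dominant end.

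In 4 of the 5 short genes a few sites held much of the reads, and Ube3a was the exception, with 11.3% at its strongest site. The most reads of all members were counted for Copg2 (gene11259), the gene of a coat protein of Golgi vesicles. They were 185311 at 71 sites between 58066852 and 58092895 on chromosome 4, and 3 sites held 19.6%, 18.9% and 17.7% of them. These reads lay on the strand opposite to the gene's annotation in a later assembly (GRCr8, below). Whether they came from the messenger RNA of the coat protein was not tested. Map1b (gene5231) and Map1a (gene9554), which encode microtubule-associated proteins of neurons, followed with 149530 and 121406 reads. The strongest Map1a site, at 113262980 on chromosome 3, held 39.5% of the gene's reads and lay 33.4% along its span. The strongest Peg3 site, at 70235780 on chromosome 1, held 40.3%. Peg3 (gene1031) is an imprinted gene for a zinc finger protein, and its 36977 reads came from 52 sites within 22.7 kb. Among the long genes, Macf1, which links microtubules to actin, was as concentrated, with 47.0% of its reads at 141118584 on chromosome 5.

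The strand of the reads differed from the strand annotated in a later assembly in a few genes. Of the 110 genes, 79 had an entry in a RefSeq promoter table of the later assembly GRCr8, and 73 of these were annotated on the strand that carried the reads (88.5% of 8383 genes over the whole table were). The 6 others were Copg2, Ube3a, Ank3, Dst, Schip1 and Phactr1. Of 10 neighbouring genes each, the strands were the same in 10 at Copg2 and Ank3 and in 9 at Ube3a. At Schip1 and Phactr1 this held for 7 of 10, and at Dst for 5 of 10. Beyond these neighbours, the orientation of the stretches was not compared between the assemblies. For Copg2 the plus strand carried the 71 counted sites and the minus strand 9 sites with 1187 reads. The first of the 71 lay 3385 bp past the last plus-strand site of the imprinted neighbour Mest, which had 180 reads at 2 sites. For Ube3a (gene2172), a ubiquitin ligase that is imprinted in neurons and has a long antisense RNA there, 115 sites with 23451 reads lay on the minus strand and 6 sites with 907 reads on the plus strand. These 2 genes are thus counted on the strand opposite to the GRCr8 annotation, and the direction called 3′ for them follows their reads.

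The question the design asks of these genes is whether their reads differed between the diets. Most of the 110 gene totals were somewhat higher in the obesity group, and none passed the adjusted threshold. Totals were compared as counts per 1000000 reads at gene sites (CPM, scaled by the TMM method), with a call at an adjusted p under 0.1 in edgeR's quasi-likelihood test over all 12255 genes. No member was called (0% of all genes were). At an unadjusted p under 0.05, 15 of 110 members (13.6%) were higher in obesity and 0 were lower, where 2.54% of all genes were higher and 2.57% lower. DESeq2's Wald test also called 0 members at the adjusted threshold, and 18 were higher and 0 lower at the unadjusted one, where it called 0.0327% of all genes and put 3.13% higher and 2.77% lower. With the library number as a block, 1 member (Asic2) passed the adjusted threshold, where 0.277% of all genes did, and 37 members (33.6%) were higher and 0 lower at the unadjusted threshold, where 4.77% of all genes were higher and 6.15% lower. Of the members 97 had a log2 fold change above 0 and 13 below, and their median was 0.23, against 0.00 over all genes.

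Asic2 (gene24541) encodes an acid-sensing sodium channel and had 117 sites on the minus strand of chromosome 10. Its total was 539, 485, 459 and 618 CPM in the control libraries, against 1024, 591, 812 and 1218 CPM in the obesity libraries. Obesity library 2 lay below the highest control library, and the other 3 lay above all controls. The log2 fold change was 0.79 ± 0.22 (SE, n = 4 and 4), with an edgeR adjusted p of 0.920 without the block and 0.0529 with it.

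Cadps, which primes dense-core vesicles for release, had 239.9, 274, 243 and 323 CPM in the control libraries, against 396, 359.7, 373 and 481 CPM in the obesity libraries. All obesity libraries were above all control libraries (log2 fold change 0.57 ± 0.19, SE, edgeR adjusted p = 0.920). Park2, the ubiquitin ligase parkin, had a mean of 232 ± 29.7 CPM in control and 354 ± 86.8 CPM in obesity (SD, n = 4). Tenm2, a teneurin that binds latrophilins across the synapse, stood at 971 ± 108 and 1392 ± 214 CPM. Fam155a, now known as a subunit of the sodium leak channel complex, stood at 1524 ± 270.4 CPM in control and 2171 ± 368 CPM in obesity. For all 3 genes obesity library 2 lay below the highest control and the other 3 obesity libraries above all controls, and the edgeR adjusted p was 0.920.

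Among members with a lower total in obesity, those with the smallest p were Peg3, Map2, Map1b, Dst and Ank2, and their unadjusted p ran from 0.294 to 0.672. Peg3 stood at 3559 ± 702 CPM in control and 3055 ± 609 in obesity (log2 fold change -0.22 ± 0.20, SE, edgeR adjusted p = 0.961). The library of the same number was lower in obesity for 4 of 4 numbers. Map2, a dendritic microtubule-associated protein, had a log2 fold change of -0.13 ± 0.18 and Map1b of -0.11 ± 0.20.

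**Figure D2:**
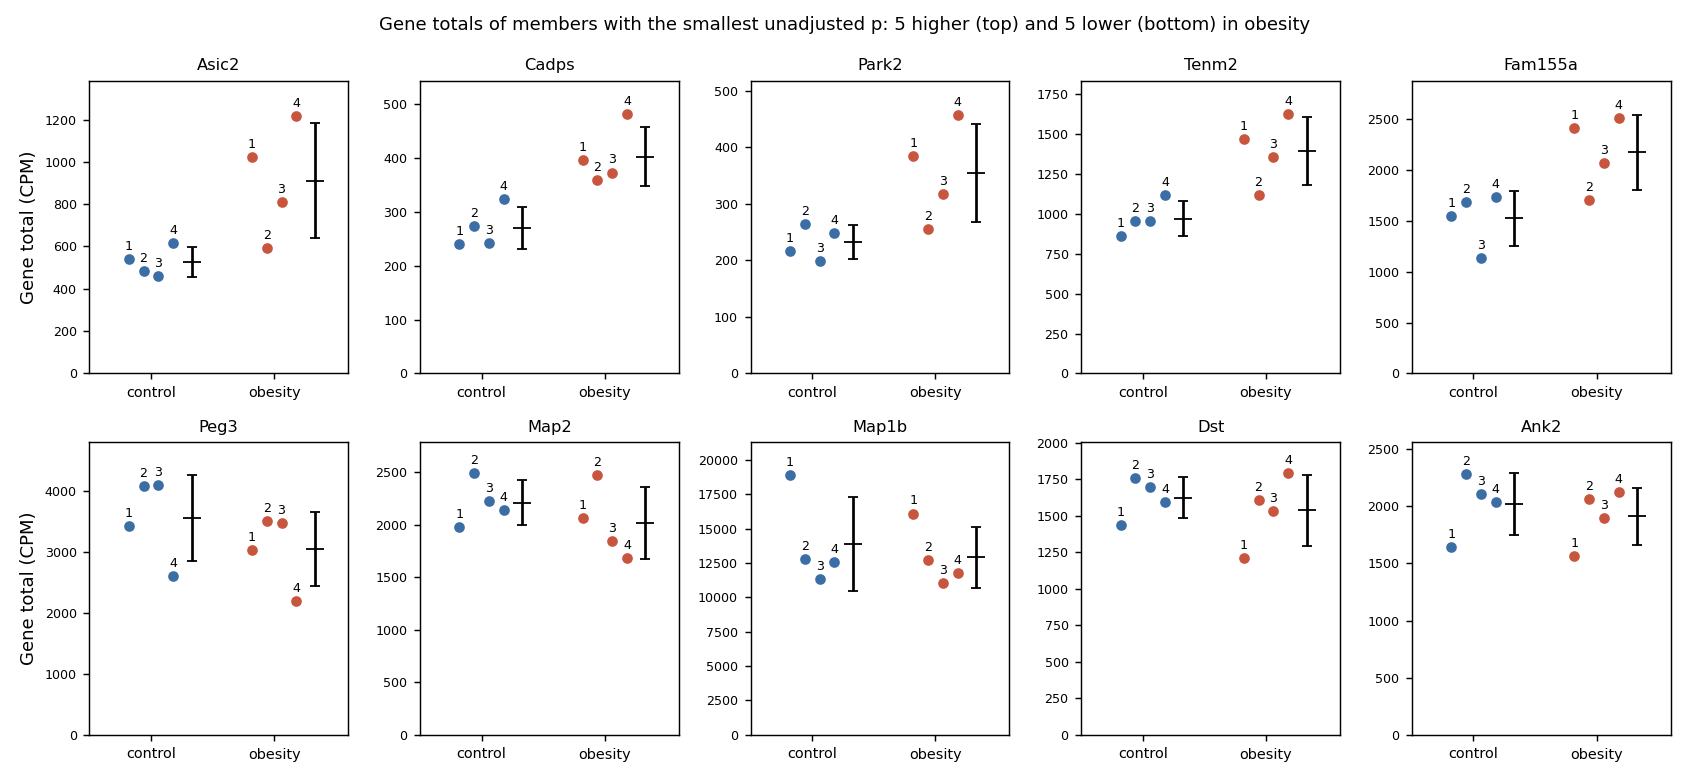
Gene totals in CPM for the 5 members higher and the 5 lower in obesity with the smallest unadjusted p. Points are libraries, labelled with their number, and bars are mean ± SD (n = 4). In the upper row obesity library 2 is the lowest obesity library in each panel, and in the lower row the groups overlap in each panel.

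The groups did not overlap in 9 members, higher in obesity in each (1.68% of all genes were apart in this direction), and in 0 members in the other direction (1.77% of all genes). Besides Cadps these were Rbfox1, Dpp6, Fgf12, Tenm4, Phactr1, Tmem178b, LOC103692025 and LOC100362819, named after their values had been seen. Obesity library 2 exceeded all controls in 14 of the 110 members. The share over all genes is not given here, so 14 cannot be called few or many. Without that library, 26 members were higher at the unadjusted threshold, where 4.19% of all genes were. Without control library 3 the number was 5 (2.05% of all genes), without obesity library 1 it was 6 (2.22%), and without obesity library 4 it was 4 (2.06%), with 0 members lower each time.

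By function, members were grouped in lists that left 36 genes unlisted. Of 32 members for cell adhesion and synapse formation 28 had a log2 fold change above 0 (median 0.20), and 3 were higher at the unadjusted threshold, namely Tenm2, Dscam and Lrrtm4. Of 18 ion channels, pumps and receptors 17 were above 0 (median 0.22), with 1 at the threshold (Asic2). Kinases, phosphatases and second messenger genes had 8 of 8 above 0 (median 0.22) and 0 at the threshold, and vesicle genes 3 of 3 (median 0.16) with 1 at the threshold (Cadps). RNA processing, chromatin and protein turnover genes had 2 of 4 above 0 (median -0.01) with Rbfox1 at the threshold. The 10 microtubule and cytoskeleton genes had 6 above 0 (median 0.03), with 0 at the threshold. The unlisted genes had 34 of 36 above 0 (median 0.28) and 9 at the threshold, among them Fgf12 and Fgf14, intracellular partners of sodium channels. No list had a member lower at the threshold. The 22 measured cleavage and polyadenylation factors, which hold no member, had 8 above 0 (median -0.16), 0 higher and 2 lower at the threshold. Over all genes 50.1% were above 0, and 2.54% were higher and 2.57% lower at the threshold.

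The diet difference was graded with the number of sites. Over protein-coding genes the median log2 fold change was -0.11 in 3349 genes with 1 site, -0.03 with 2 to 5 sites, 0.04 with 6 to 10, 0.08 with 11 to 25 and 0.15 in 198 genes with 26 to 50 sites. It was 0.25 in 57 genes with 51 to 75 sites and 0.20 in 53 genes with 76 or more. Genes higher at the unadjusted threshold made up 1.76% of the first class, 6.57% of the class with 26 to 50 sites, 10.5% of that with 51 to 75 and 17.0% of the last. Without obesity library 2 the medians ran from -0.18 in the first class to 0.29 in the last. Genes with many sites also have more reads, and the classes were not compared by a test. The number of sites was counted from the reads of these same 8 libraries. Reads of either group could lift a site over the listing minimum, so class and fold change are not independent.

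**Figure D3:**
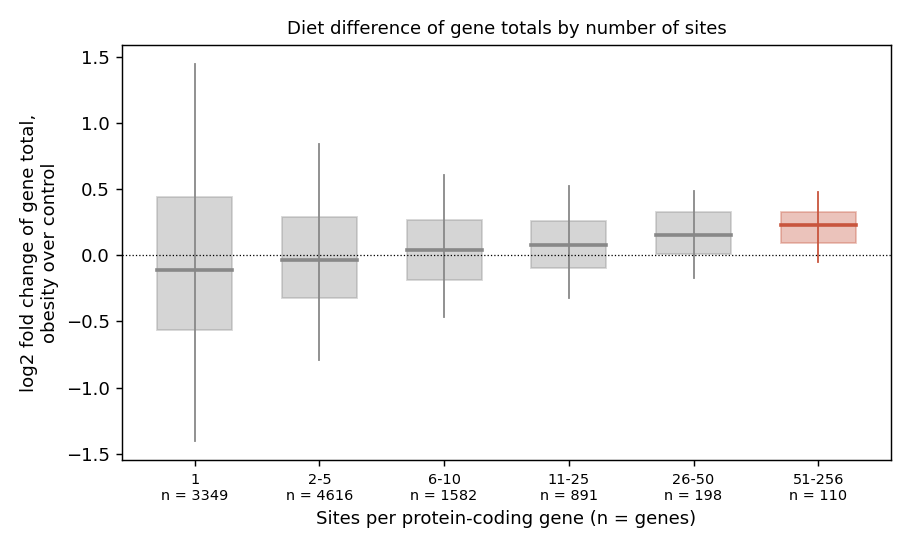
Log2 fold change of gene totals (obesity over control) for protein-coding genes by their number of sites. Boxes are quartiles with the median as a line, whiskers run from the 5th to the 95th percentile over genes, and the median climbs from -0.11 in genes with 1 site to 0.23 in the 110 genes with over 50.

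The higher reads lay upstream of the genes' 3′ ends. In the 105 long genes the sites outside the 3′-most 10% of the span took 5.93%, 5.92%, 5.04% and 6.08% of all reads in the control libraries, against 6.95%, 5.78%, 6.62% and 7.52% in the obesity libraries. Obesity library 2 lay among the controls and the other 3 above them. The 3′-most 10% took 1.33%, 1.43%, 1.37% and 1.36% in control and 1.11%, 1.35%, 1.24% and 1.30% in obesity. Here each obesity library was below the control library of the same number. The 5 short genes took 3.87% ± 0.483 (SD, n = 4) in control and 3.88% ± 0.391 in obesity, with overlapping groups.

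Of the reads in the 105 long genes, the 3′-most 10% held 19.4% ± 1.43 in control and 15.8% ± 2.20 in obesity (SD, n = 4). The median over all 110 genes of the share at a gene's last site was 0.722%, 0.882%, 1.17% and 0.865% in control and 0.482%, 0.681%, 0.584% and 0.540% in obesity, so that the groups did not overlap. The median share in the 3′-most 10% of the span was 11.0% ± 0.666 and 10.3% ± 1.03, and there they overlapped. The share in the 3′-most 10% was lower in obesity in 81 of 110 genes (73.6%), with a median difference of -1.24 percentage points. Among the 198 genes with 26 to 50 sites it was lower in 73.2%, and among all 7802 genes with several sites and reads in each library in 63.0%, with median differences of -2.20 and -2.26 points. It was lower for 4 of 4 numbers in 34 of the 110 genes (30.9%), against 20.2% of the 198 genes and 12.2% of all, and higher for 4 of 4 in 4 genes (3.64%), against 3.54% and 4.23%. No overlap between groups was seen in 9 of the 110 genes in the lower direction (8.18%), against 5.05% of the 198 and 2.65% of all, and in 0 in the higher direction, against 1.01% and 0.526%. A share is measured more closely in a gene with more reads, and these percentages were not compared by a test.

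Rbfox1 showed both sides of this. Its 3′-most 10% held 18.4%, 15.0%, 22.6% and 15.8% of its reads in the control libraries, against 7.72% to 13.3% in the obesity libraries, so that the groups did not overlap. In CPM these sites stood at 363 ± 34.1 in control and 286 ± 39.1 in obesity, while the rest of the gene stood at 1687 ± 216 and 2484 ± 465 (SD, n = 4). Dpp6, an accessory subunit of A-type potassium channels, went from 404 ± 118 to 373 ± 50.1 CPM in its 3′-most 10% and from 556 ± 69.0 to 792 ± 101 CPM in the rest. In Fam155a the values were 106 ± 23.2 and 79.1 ± 19.7 CPM at the 3′ end, and 1418 ± 256 and 2091 ± 364 CPM elsewhere. Phactr1, a regulator of actin and protein phosphatase, was among the 4 genes that went the other way, from 33.2 ± 8.19 to 75.2 ± 34.6 CPM in its 3′-most 10%. Phactr1 is also 1 of the 6 genes whose reads lay on the strand opposite to the GRCr8 annotation. Dpp6 and Phactr1 were named here after their shares had been seen.

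Site by site the same picture held in the medians. In the 105 long genes the median log2 fold change of sites was between 0.15 and 0.24 in each of the 9 other bins of 10% and -0.02 in the 3′-most bin. Of the 1052 sites in that last bin 8 (0.760%) were higher and 23 (2.19%) lower at an unadjusted p under 0.05, and of the 8276 in the rest 154 (1.86%) were higher and 44 (0.532%) lower, where 1.72% of all sites were higher and 1.41% lower. The 1.86% in the rest was thus near the share over all sites. In the 198 genes with 26 to 50 sites, the median was -0.08 in the 3′-most bin and between 0.13 and 0.24 in the others, with 1.63% of sites higher and 3.09% lower in the last bin and 1.91% and 0.799% in the rest, so this is no feature of the 110 genes alone.

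**Figure D4:**
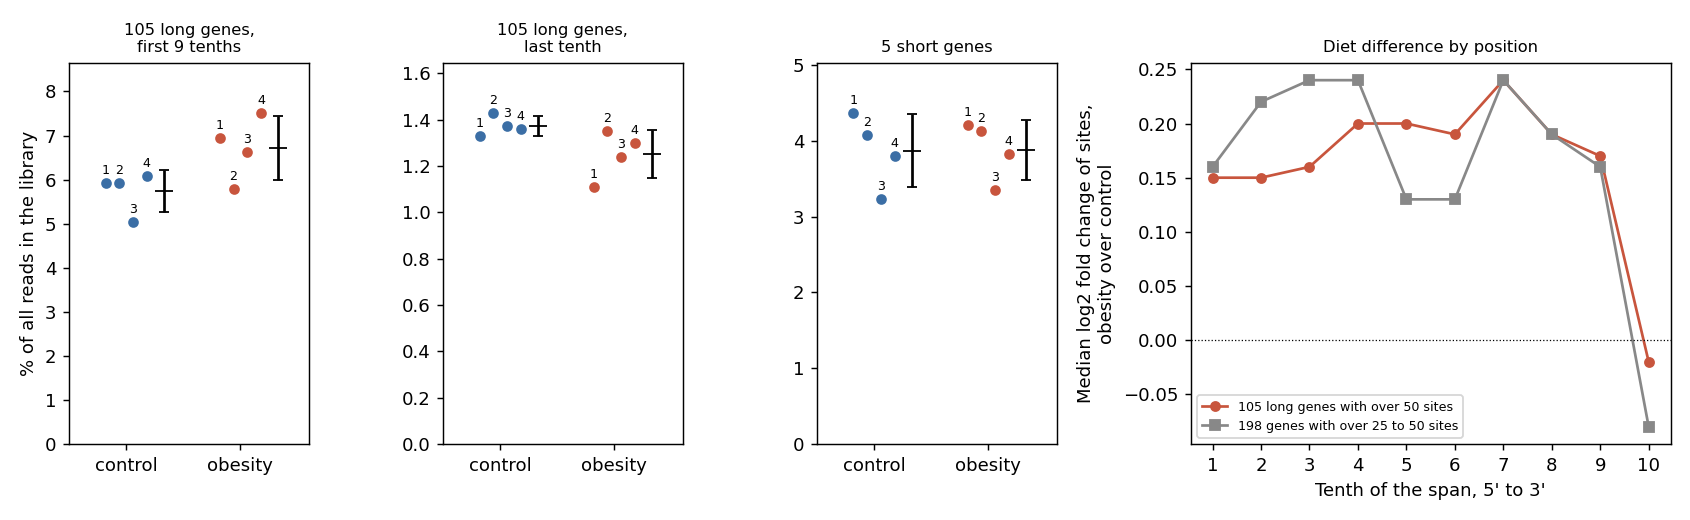
The 3 panels on the left give the percent of all reads per library (points with library numbers, mean ± SD, n = 4) at sites of the 105 long genes outside and inside the 3′-most 10% of the span and at the 5 short genes. The right panel gives the median log2 fold change of sites by 10% bins of the span, which drops to -0.02 in the 3′-most bin of the 105 long genes and to -0.08 in that of the 198 genes with 26 to 50 sites.

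Other measures were set beside these values. The percent of reads at mitochondrial sites was 5.32, 5.94, 8.27 and 6.23 in the control libraries, against 4.29, 6.99, 3.85 and 4.34 in the obesity libraries, so that obesity library 2 again lay with the controls. Over all genes with several sites, the last site held a mean of 33.3% ± 1.18 of a gene's reads in control and 30.8% ± 1.75 in obesity (33.4% in obesity library 2). The summed level of 10 oligodendrocyte markers was 14488 to 20041 reads per 1000000 in control and 10264 to 18021 in obesity. Of these 10 markers 0 were above a log2 fold change of 0, and 2 were lower at the unadjusted threshold. The 8 astrocyte markers ran from 2849 to 4038 and from 1920.3 to 3358, with 2 of 8 above 0 and 1 lower. The 9 measured neuronal markers, of which Syt1 is also a member, ran from 4712 to 6733 and from 4001 to 5436, with 2 of 9 above 0 and 1 lower. The 4 measured microglial markers ran from 67.8 to 112 and from 26.2 to 92.8, with 2 lying above 0 and 1 lower. Obesity library 1 gave the lowest oligodendrocyte, astrocyte and microglial sums, and obesity library 4 the lowest neuronal sum. Obesity library 2 gave the highest obesity sum for oligodendrocytes (18021, next 16159), astrocytes (3358, next 3354) and microglia (92.8, next 73.1). In the neuronal sum it stood at 5436 and obesity library 1 at 5421. In each of these sums some of the other obesity libraries also lay within the control range. Of the 10 hypothalamic genes 5 were above 0, 2 higher and 2 lower. Over all genes 50.1% were above 0, and 2.54% were higher and 2.57% lower at the unadjusted threshold. The part of these measures in the differences of the 110 genes was not tested. In these bulk samples fewer cells of a type and less RNA per cell cannot be told apart.

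No single member site passed the adjusted threshold in edgeR's quasi-likelihood test over all 73922 sites (0.00135% of all sites did, and 0.00541% with the block, where no member site did either). At an unadjusted p under 0.05, 185 of 9726 member sites (1.90%) were higher in obesity and 78 (0.802%) lower, where 1.72% of all sites were higher and 1.41% lower. With the block 333 (3.42%) were higher and 159 (1.63%) lower, where 2.79% and 3.31% of all sites were. The groups did not overlap at 185 sites in the higher and 94 in the lower direction (1.90% and 0.966%), where the shares over all sites were 1.43% and 1.69%. The median log2 fold change was 0.16 over member sites and 0.05 over all sites.

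The sites with the smallest p were taken among those with a mean of at least 10 reads per library. The higher ones lay outside the 3′-most 10% of their genes' spans, as did 8599 of the 9726 member sites. Site 66171930 of Kcnip4 on chromosome 14, at 51.9% of the span, had 14, 17, 14 and 17 reads in the control libraries, against 61, 28, 77 and 95 reads in the obesity libraries. All obesity libraries were above all controls, with a log2 fold change of 1.90 ± 0.43 (SE). Site 113263785 of Map1a on chromosome 3 had 6, 0, 8 and 6 reads in control and 108, 59, 20 and 35 reads in obesity, with a log2 fold change of 3.32 ± 0.77 (SE), although it held only 0.199% of the gene's reads. These 2 sites passed the adjusted threshold in DESeq2's Wald test (adjusted p = 0.0656 for each) and not in edgeR's (adjusted p = 1.00 for each). DESeq2 gave an adjusted p to 3552 member sites and called these 2 (0.0563%), where it called 10 of 26286 sites overall (0.0380%). The next were a Map1b site at 29686767, a Rbfox1 site at 9426378 and an Asic2 site at 68722710, with log2 fold changes of 2.79 ± 0.74, 2.74 ± 0.75 and 2.20 ± 0.64 (SE).

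Of the 5 lower sites 3 lay at the far 3′ end of a long gene. Site 86052122 of Fam155a on chromosome 16, the 140th of its 141 sites, had 128, 96, 60 and 97 reads in the control libraries, against 47, 38, 40 and 46 reads in the obesity libraries. Every obesity library was below every control library (log2 fold change -1.25 ± 0.34, SE, edgeR adjusted p = 1.00). Site 114067566 of Nrxn3 on chromosome 6, at 99.9% of the span, had 31, 30, 27 and 28 reads in control and 3, 7, 12 and 13 in obesity (log2 fold change -1.86 ± 0.52). Site 119158173 of Dlgap1, a postsynaptic scaffold gene on chromosome 9, lay at 99.8% of the span and went from 25.8 ± 5.92 to 8.70 ± 3.07 CPM (SD, n = 4). The other 2 lay further upstream in their spans. Site 6117502 of Ntrk2, the receptor gene for BDNF on chromosome 17, lay at 39.7% of the span, held 15.3% of the gene's reads, and went from 181 ± 30.8 to 90.8 ± 11.5 CPM with groups apart. Site 116621249 of Ube3a, on the strand opposite to the GRCr8 annotation, had 62, 24, 11 and 78 reads in control. It had 6, 15, 11 and 4 in obesity, and the groups overlapped.

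The division of reads among a gene's sites was tested apart from its total, with edgeR's exon-usage test and the Simes method over 7996 genes with several sites. No member passed (0% of all genes did), and with the block none passed either (0.0125% of all genes). At an unadjusted p under 0.05 there were 2 members (1.82%), Map1a and Map1b, where 1.36% of all genes were, and 11 of 110 members with the block, where 2.80% of all genes were. In both genes the site with the smallest p was the minor one named above. Next came Nrg3, Magi2 and Grin2b, a subunit of NMDA receptors, with an unadjusted p between 0.0552 and 0.0795. In Nrg3 and Magi2 their leading sites rested on 1 library each: 27 of 30 reads came from control library 1 at the Nrg3 site, and 25 of 34 from obesity library 1 at the Magi2 site. At the median, the effective number of sites of a gene (inverse Simpson number after thinning every gene to 200 reads) was 27.1 ± 3.66 in control, against 25.6 ± 1.83 in obesity (SD, n = 4), and the strongest site held 8.76% ± 1.08 and 9.01% ± 0.631. Both measures overlapped between the groups.

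Single sites also differed with the library number. Both libraries of 1 number, 1 from each group, were the highest 2 of the 8 at 2703 of 9726 member sites (27.8%), where 26.0% of all sites were. Among the 115 member sites with over 1000 reads this held at 55 (47.8%), and among the 1333 such sites of all genes at 485 (36.4%). For these 115 sites the groups did not overlap at 2 in the higher (1.74%) and 4 in the lower direction (3.48%), where the shares over the 1333 sites were 0.525% and 3.15%.

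The sites below were picked for this pattern, so their values are a description. At site 113263591 of Map1a, which held 11.4% of the gene's reads, the control libraries had 834, 4172, 636 and 1191 reads, against 867, 3653, 1123 and 1309 in obesity. The libraries numbered 2 had 22.6% and 23.2% of the gene's reads there, and the highest of the other 6 had 8.78%. At site 70233562 of Peg3, 34.6% and 35.8% of the gene's reads came from this site in the libraries numbered 2 and between 4.09% and 12.1% in the others. At site 29684053 of Map1b the libraries numbered 3 stood out, with 7.40% and 6.25% against at most 2.33%. At site 141158232 of Macf1 it was those numbered 4, with 21.4% and 18.5% against at most 11.3%. At site 108568580 of Ctnna2, a catenin of neuronal junctions, it was those numbered 1, with 16.4% and 18.5% against at most 7.55%. The labels do not say what the number stands for.

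**Figure D5:**
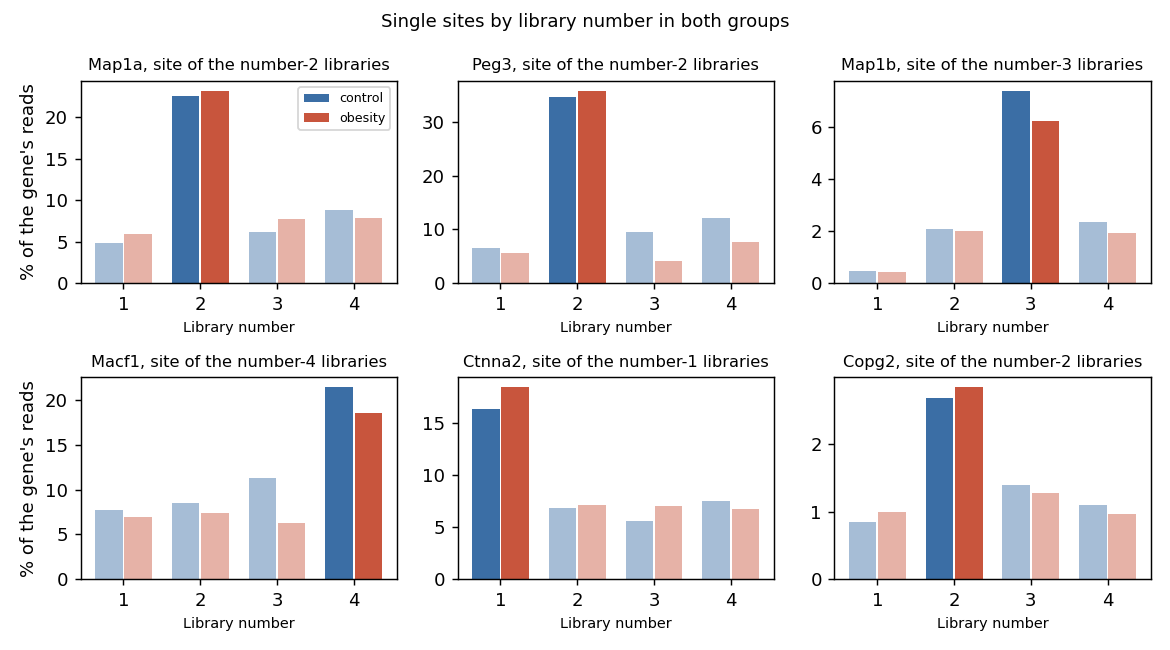
Percent of a gene's reads at single sites in each library, by library number (x axis) and group (colours), with the pair of the leading number in full colour. At the Map1a and Peg3 sites the pair numbered 2 stands above the other 6 libraries, and the other panels show the same for pairs 3, 4, 1 and 2.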

How the data were processed

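The authors deposited 1 table of unnormalized read counts by polyadenylation site. The submitters' processing notes name Bowtie2 2.2.3 and Rnor_6.0, and how reads were clustered into sites and assigned to genes is not given in the sources used here. The paper linked to the series describes another exposure, so groups were taken from the labels and its methods were not used. A line without a site, holding the total of control library 1 (1710888), was left out. All 8 value columns were mapped to libraries by name. Sites were summed per gene on the strand with the larger read sum. Totals, sites and site usage were compared with edgeR 4.0.16 (quasi-likelihood test with TMM scaling, and diffSpliceDGE with Simes p-values) in R 4.3.3, fitted over all genes or sites with Benjamini-Hochberg adjustment and a threshold of 0.1. DESeq2 1.42.0, its size factors, a filter on low counts, both strands, other site thresholds, leaving out each library and the library number as a block were alternatives. The scripts were tested on simulated counts.

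The numbers pair the libraries: same-numbered control and obesity libraries deviated together from their group means over all sites (correlations 0.382, 0.358, 0.268 and 0.322 for numbers 1 to 4, against -0.200 to -0.0387 for other pairs). Deviations from a group mean sum to 0, so positive values for the same number push those of other pairs below 0 on average. The labels name 8 rats and no shared day or batch. Without the block, p-values treat the 8 rats as independent and leave this pairing out. With the block, they measure the spread of the differences between libraries of the same number. Members, gene lists and tests were chosen with earlier results of these data known. Named genes are the extremes in sites, reads, span, strongest site and p, and others are said to have been chosen after their values were seen. Reads carry no molecular identifiers, A-rich flanks were not examined, no genome of the build was used, and sites were not classed as exonic or intronic. One gene is counted among the members and is not reported here by name. Counts from genes on overlapping strands or with close copies may be shared. In control library 1, 19.3% of member sites had no read, and in the others 5.07% to 12.6%.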

Additional observations from a re-analysis of the deposited data

Results flagged for a closer look

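Of 86 groups of 4 libraries that were looked at, 3 held a library set apart from the other 3 by a gap above Dixon's 95% limit on its share of the group's range, and chance gives about 5% of groups. Control library 3 had 5.04% of its reads at sites of the 105 long genes outside the 3′-most 10% of the span, and the other controls had 5.92% to 6.08%. Control library 2 had 978 CPM for Grin2b, and the other controls had 770.4 to 801. Obesity library 3 had 20.2 CPM at site 86052122 of Fam155a, and the other obesity libraries had 25.8 to 26.6.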

How the results depend on the processing

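Counts of calls for the 110 genes were compared over 15 or 16 alternatives each, among them one added after seeing the data, without the 5 members whose sites span under 100 kb. Totals at the adjusted threshold gave 0 calls, and 1 (Asic2) with the library number as a block. At the unadjusted threshold the 15 calls became 37 with the block, 9 of 53 genes with over 75 sites, and 4 to 26 when 1 library was left out, the libraries named in the report. All were higher in obesity. Sites gave 0 adjusted calls, and 2 in DESeq2's Wald test. The 263 sites at the unadjusted threshold became 492 with the block, 156 of 3456 after the filter on low counts, and 233 to 441 without 1 library (441 without obesity library 2). Site usage gave 0 adjusted calls, and 1 with sites on both strands. The 2 genes at the unadjusted threshold became 11 with the block, 5 after the filter, 8 with both strands, 6 of 140 genes with over 40 sites, 1 of 53 with over 75, 0 without the 5 short genes, and 1 to 10 without 1 library (over 1.5 times off for each but obesity library 3). Among the 8 genes with both strands, Ptprd, Kazn and Dst had an added site read almost only in obesity library 1. It gave 67 of 67, 57 of 57 and 168 of 172 reads there, and the gene called had such a site too. These genes were named after their values had been seen. The cause of the shifts in these counts was not tested, apart from the smaller number of genes or sites in some. The block changed no other call. The 4 measures per library moved by less than 1 SD under each alternative. Without 1 library, the difference between obesity and control was 0.414 to 1.08 percentage points for reads at member sites, -1.12 to -0.426 for the 3′-most 10%, -0.129 to 0.648 for the strongest site, and -3.25 to -0.41 for the effective number of sites. Of the member sites 51.1% had under 60 reads, which limits what single sites can show.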

Other observations

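Reads on the strand left out for each gene were few. The 110 genes had 299 sites there with 36968 reads, 2.36% of their reads on both strands, spread over 96 genes and led by Dpp6 with 3594 reads at 3 sites and Lrrc4c with 2543 reads at 21 sites. These sites held 0.217% ± 0.0471 of all reads in control, against 0.324% ± 0.103 in obesity (SD, n = 4). By library the percentages were 0.214, 0.271, 0.156 and 0.227 for control, against 0.441, 0.194, 0.354 and 0.306 for obesity. Obesity library 2 lay among the controls and the other 3 above them, the order seen for the upstream sites of the long genes. One such site, named after its values had been seen, lay at 108513270 on the plus strand of chromosome 4, within Ctnna2. It had 9, 22, 5 and 8 reads in control and 51, 19, 61 and 26 in obesity (log2 fold change 1.70 ± 0.54, SE, edgeR adjusted p = 1.00).

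The share of reads in the 5′-most and the 3′-most 10% of a gene ran weakly against each other over the 110 genes (Spearman rho -0.264), where shares of one total are bound to trade off. The share in the 5′-most 10% exceeded that in the 3′-most 10% in 58 genes.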
